A study of Mus musculus with 6 samples.

Results

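The mitochondrial genome of the mouse holds 37 genes, and all 37 were among the 47069 gene identifiers counted in inguinal subcutaneous white adipose tissue (SC-WAT) of mice with and without Egr1, the gene of a zinc finger transcription factor. They were chosen by their place on the mitochondrial chromosome in the GENCODE annotation, which lists 13 mRNA, 2 rRNA and 22 tRNA genes. RNA came from 3 Egr1+/+ and 3 Egr1-/- female C57BL/6 mice aged 2 weeks, 1 library of rRNA-depleted total RNA per mouse, and the comparison asks how the loss of Egr1 bears on the RNA of this fat depot. The Egr1-/- mice carried a LacZ insertion and a frameshift in Egr1 in every cell of the body. Mice of both genotypes descended from Egr1+/- parents. An Egr1+/+ and an Egr1-/- mouse were littermates, and the labels do not say which ones.

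The mitochondrial genome is a small circle of DNA present in many copies per cell and inherited from the mother. Both of its strands are transcribed into long precursors, from which the tRNAs are cut out, and this frees the mRNAs and rRNAs that lie between them. The mRNAs encode subunits of respiratory complexes I, III, IV and V, whose other subunits are made from nuclear genes. The 2 rRNAs belong to the mitochondrial ribosome, which translates these mRNAs only. Brown and beige adipocytes are known for their many mitochondria, in which UCP1 turns the proton gradient built by these complexes into heat.

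The libraries held 29661984 to 42357981 counts on genes. Egr1 itself had 353, 241 and 711 counts with and 103, 84 and 57 without the intact gene. Ucp1 stood at 400, 316 and 305 CPM (counts per 1000000, scaled by edgeR's TMM factors) in Egr1+/+ mice, against 858, 571 and 949 in Egr1-/- mice. The markers of white adipocytes were present in every mouse, with Fabp4, a fatty acid carrier, between 2980 and 4200 CPM. The names of the 3 Egr1+/+ libraries and of Egr1-/- mouse 1 begin with 1 number and those of Egr1-/- mice 2 and 3 with another, whose meaning is not stated, and genotype and name number cannot be told apart for those last mice.

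Several of these genes share long stretches of sequence with the nuclear genome. The nuclear genome holds old copies of mitochondrial DNA, and a read that matches both places has no single origin. Each mitochondrial gene was therefore divided into overlapping windows of 50 bases, the read length given in the labels, and each window was searched in the annotated nuclear transcripts. The methods of the study describe paired reads instead, and a mate can place a read that its own sequence does not, so a shared window need not be an unplaced read. In 5 of the 13 mRNA genes over 90% of the windows were also found in a nuclear pseudogene: mt-Co2 at 100%, mt-Co3 at 99.9%, mt-Atp6 at 99.5%, mt-Nd4l at 98.8% and mt-Nd3 at 98.0%. For mt-Nd4 the share was 62.2% and for mt-Co1 51.1%. It was 8.19% for mt-Nd2 and 7.61% for mt-Nd5, and 0% for mt-Nd1, mt-Atp8, mt-Nd6 and mt-Cytb. Of the rRNA genes, mt-Rnr1 shared no window and mt-Rnr2 shared 1.04%. The tRNA genes shared none with an annotated transcript, but 5 of them lie within the stretch copied on chromosome 1, between the annotated copies, where the nuclear sequence was not searched.

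The pseudogenes that match most closely lie together on chromosome 1 (GRCm38, chr1:24611535-24616197, minus strand). They number 7, at 99.7% to 100% identity, and follow the mitochondrial genes from chrM:6390-11042 in order. The first 60 bases of mt-Co3 and of its nuclear copy Gm28437 are shown because no base differs between them (GENCODE release M21, chrM:8607-8666, plus strand, and chr1:24613912-24613971, minus strand):
mt-Co3: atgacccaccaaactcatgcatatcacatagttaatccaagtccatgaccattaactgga
Gm28437: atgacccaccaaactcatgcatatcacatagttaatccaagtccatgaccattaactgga
Over the whole of the 783 bases aligned, mt-Co3 and its copy did not differ, and the last base of mt-Co3 lies beyond the copy. The pairs of mt-Co2 with Gm28661, mt-Atp6 with Gm10925 and mt-Nd4l with Gm10222 also had 0 differences, and each gene ran 3 bases beyond its copy. The pair of mt-Nd3 and Gm28438 had 1 difference in 345 bases, T3C, counted from 1 at the first base of mt-Nd3 with the mitochondrial base first. It is in capitals in the first 60 bases of both (chrM:9459-9518, plus strand, and chr1:24613060-24613119, minus strand):
mt-Nd3: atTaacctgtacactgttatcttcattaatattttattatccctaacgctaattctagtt
Gm28438: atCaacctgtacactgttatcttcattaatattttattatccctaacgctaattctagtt

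The counts of the mRNAs were divided in the same way. The 5 mRNAs with over 90% of their windows shared held 10188 counts over the 6 mice, 0.0947% of the mRNA counts, and 9149 of these were on mt-Nd3. mt-Nd3 had between 1284 and 1925 counts per mouse, mt-Atp6 between 65 and 197, mt-Co2 between 6 and 97 and mt-Co3 between 4 and 11. mt-Nd4l, a complex I subunit, had 1 count in Egr1+/+ mouse 1, 1 in Egr1-/- mouse 2 and 0 in the others. The other 8 mRNAs each had at least 8099 counts in every mouse. Few counts lay on the pseudogenes either. The 7 on chromosome 1 had 851 counts in all. The 3 on chromosome 2, at 95.9% to 97.6% identity, had 7397, of which 5772 lay on Gm13340, a copy of mt-Co1. How reads with more than 1 place in the genome were counted is not given in the sources used here, and its part in these low counts was not tested. The low counts of these 5 mRNAs are therefore not read here as RNA levels.

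**Figure D1:**
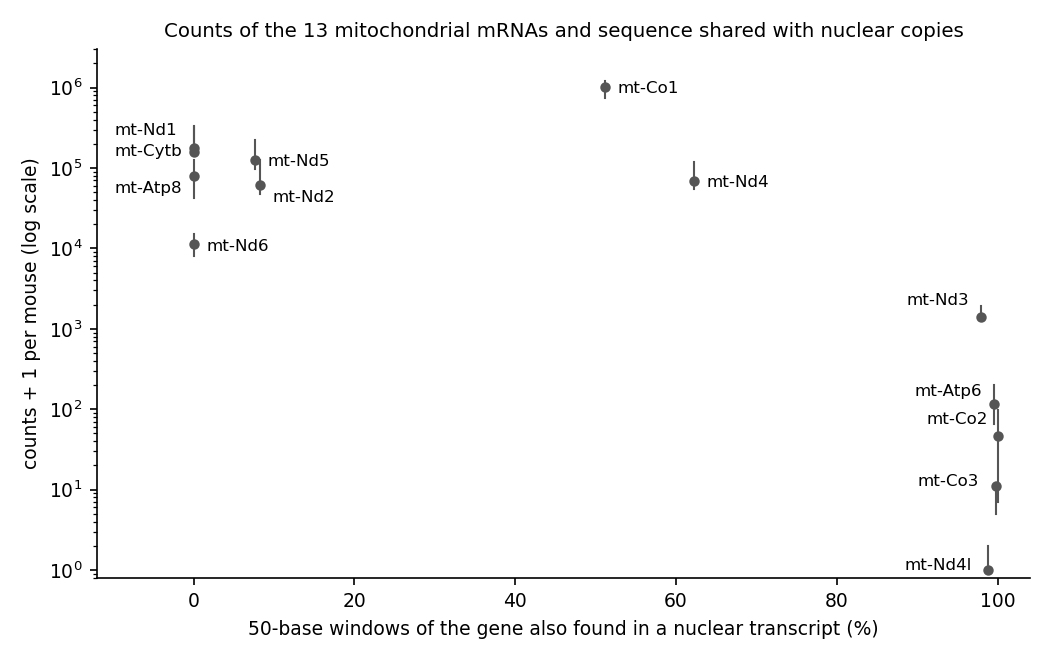
Counts per mouse plus 1 (log scale) for the 13 mitochondrial mRNAs against the share of each gene's 50-base windows that is also found in an annotated nuclear transcript. Points are medians and lines run from the lowest to the highest of the 6 mice. The 5 genes at 98.0% to 100% lie between 0 and 1925 counts, and the 8 others between 8099 and 1193841.

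Per kilobase of gene, the order of levels was led by the 2 rRNAs. mt-Rnr2, the RNA of the large mitochondrial ribosomal subunit (chrM:1094-2675), ranged from 219860 to 421118 CPM per kilobase over the 6 mice. mt-Rnr1, the RNA of the small subunit (chrM:70-1024), ranged from 44637 to 107300, so the 2 did not overlap and their means differed by 4.00 times. The libraries had been depleted of ribosomal RNA before sequencing, so these values are what remained. The 5 mRNAs with over 90% of their windows shared are left out of this order. Of the other mRNAs, mt-Co1, the catalytic subunit of complex IV (chrM:5328-6872), was highest at 14484 to 23258 CPM per kilobase. mt-Atp8, a small subunit of complex V (chrM:7766-7969), followed at 6829 to 18726 and was below mt-Co1 in each of the 6 mice. mt-Nd1, of complex I, lay between 3903 and 10322, and mt-Cytb, of complex III, between 3177 and 8432. mt-Nd1 was above mt-Cytb in 5 of 6 mice with a ratio of means of 1.14, a difference within their spread. mt-Nd5 and mt-Nd2, also of complex I, were not separated either, with 1496 to 3649 and 1260 to 3631 and a ratio of means of 1.05. mt-Nd4 came next at 919 to 2590. mt-Nd6, the only mRNA read from the other strand (chrM:13552-14070), was between 380 and 909, below mt-Nd4 in each mouse and with no overlap of the ranges.

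When the counts were divided by the number of windows found in no nuclear transcript instead of the length, the order of some mRNAs was different. mt-Nd3 then stood at 7.68 CPM per window, above mt-Nd1 at 6.52, although only 6 of its 299 windows were unique. mt-Nd4 stood at 4.63, above mt-Nd5 at 2.64 and mt-Nd2 at 2.58. mt-Co1 at 40.7 and mt-Atp8 at 16.2 kept the highest places among the mRNAs that had such windows. mt-Atp6 with 3 such windows stood at 1.15, mt-Co3 with 1 at 0.247 and mt-Nd4l with 3 at 0.00341, and mt-Co2 had none. With so few windows these values, and that of mt-Nd3, are not read here as RNA levels.

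Neighbouring genes of this genome touch or overlap, and where they overlap a read matches both. The end of mt-Atp8 is the start of mt-Atp6, a proton channel subunit of complex V, and they share 43 bases, in capitals here with 30 bases on each side (GRCm38, chrM:7897-7999, plus strand):
mt-Atp8 and mt-Atp6: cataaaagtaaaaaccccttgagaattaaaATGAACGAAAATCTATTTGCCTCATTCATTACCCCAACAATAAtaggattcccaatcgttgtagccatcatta
The pair is cut from the precursor as 1 RNA, yet mt-Atp8 had 41845 to 127266 counts per mouse and mt-Atp6 65 to 197. mt-Nd4l and mt-Nd4 share 7 bases and showed the same contrast, with 0 to 1 counts against 54604 to 118882.

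The tRNAs gave few counts. Their genes are 59 to 75 bases long, and the 22 of them together held 7143 counts over the 6 mice, or 0.00341% ± 0.000412 of all counts in Egr1+/+ and 0.00347% ± 0.00115 in Egr1-/- mice (SD, n = 3 each). Of these, 84.4% lay on 4 genes. mt-Tl1, a leucine tRNA between mt-Rnr2 and mt-Nd1, was first with 373 to 1047 counts per mouse, followed by mt-Tm for methionine with 134 to 389, mt-Tp for proline with 67 to 168 and mt-Tq for glutamine with 38 to 106. These 4 held their order, per kilobase, in each of the 6 mice. Below them the order was not stable, and 8 tRNA genes had fewer than 10 counts in every mouse. mt-Th and mt-Ts2, for histidine and serine, had 0 of 203155748 counts over all mice, which allows a share of up to 1.48e-06% by counting error alone. The study isolated RNA with the RNeasy mini kit, and how much RNA of this length was kept was not tested. The counts of the tRNAs, and ratios between them, are therefore not read here as tRNA levels.

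Of 2 tRNAs that both lie between abundant RNAs, mt-Tl1 was counted and mt-Tv, for valine, hardly at all, with 1 to 9 counts per mouse. mt-Tv sits between the 2 rRNAs and mt-Tl1 directly behind mt-Rnr2, with no base left between the genes. The tRNA is in capitals and the neighbouring genes, 30 bases of each, are in lower case (chrM:995-1123 and chrM:2646-2780, plus strand):
mt-Rnr1, mt-Tv, mt-Rnr2: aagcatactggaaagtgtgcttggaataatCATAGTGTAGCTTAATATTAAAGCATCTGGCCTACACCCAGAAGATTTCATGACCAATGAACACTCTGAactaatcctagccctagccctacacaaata
mt-Rnr2, mt-Tl1, mt-Nd1: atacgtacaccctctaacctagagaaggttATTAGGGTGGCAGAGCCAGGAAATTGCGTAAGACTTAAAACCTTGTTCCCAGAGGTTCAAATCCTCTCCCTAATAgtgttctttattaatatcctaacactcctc
The 8 tRNA genes of the light strand, on which mt-Nd6 also lies, held fewer counts than the 14 of the heavy strand in every mouse. The ratio of the former to the latter was 0.144, 0.538 and 0.211 in Egr1+/+ mice, against 0.192, 0.300 and 0.228 in the Egr1-/- mice. Egr1+/+ mouse 2 had the highest value, and the genotypes overlapped (exact two-sided permutation p = 0.9 on the log2 ratio).

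The mitochondrial genome took 55.4%, 57.4% and 50.0% of all counts in Egr1+/+ mice, against 66.3%, 57.6% and 54.9% in the Egr1-/- mice. The means were 54.2% ± 3.83 and 59.6% ± 5.92 (SD, n = 3 each), and the genotypes overlapped (exact two-sided permutation p = 0.4). With 3 mice against 3 such a test cannot give a p below 0.1. Most of this was mt-Rnr2, at 42.7% ± 2.33 in Egr1+/+ and 47.1% ± 4.60 in Egr1-/- mice (exact permutation p = 0.3). mt-Rnr1 took 6.23% ± 1.08 and 7.26% ± 1.13 (exact permutation p = 0.3). Egr1-/- mouse 1 had the highest share of both rRNAs, and Egr1+/+ mouse 3 the lowest. The rRNA values here and below are what rRNA depletion left in each library. The part of depletion in the differences between libraries was not tested. The 13 mRNAs took 6.24%, 5.38% and 4.32% of all counts in Egr1+/+ mice, against 5.80%, 5.37% and 4.58% in the Egr1-/- mice, a difference of -0.07 percentage points (exact permutation p = 0.9).

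As a share of the counts on protein-coding genes alone, which leaves the rRNAs out of the total, the 13 mRNAs made up 12.96%, 11.9% and 8.38% in Egr1+/+ mice, against 15.54%, 12.0% and 9.65% in the Egr1-/- mice. The means were 11.1% ± 2.40 and 12.4% ± 2.96 (exact permutation p = 0.5). The sign of the difference thus depended on the total, and under both totals it was smaller than the SD within a genotype.

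**Figure D2:**
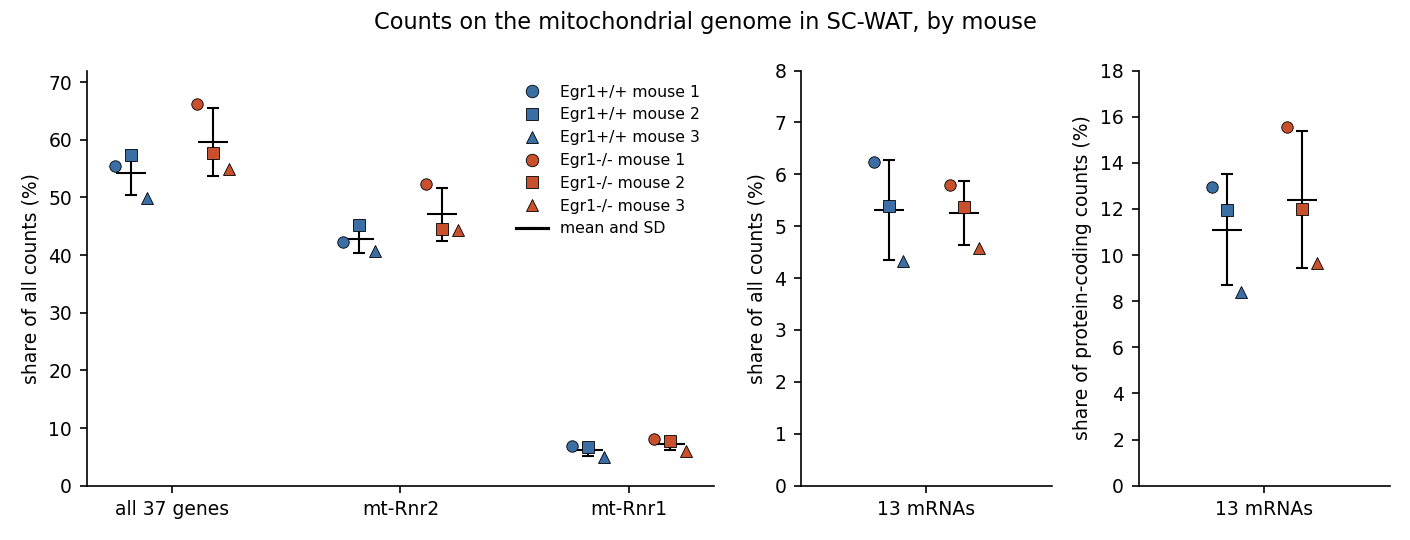
Counts on the mitochondrial genome by mouse, as a percentage of all counts for all 37 genes, for each rRNA and for the 13 mRNAs, and as a percentage of counts on protein-coding genes for the mRNAs (right). Bars are means and SD of 3 mice. Egr1-/- mouse 1 lies highest for all 37 genes at 66.3%, and the genotypes overlap in every panel.

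Gene by gene, the counts were compared in edgeR's quasi-likelihood fit over 17667 genes with p-values adjusted over all of them. In this fit 0.017% of all genes passed an adjusted p of 0.05, 5.06% had an unadjusted p under 0.05 and were higher in Egr1-/- mice, and 5.6% were lower. The filter on low counts left 23 of the 37 mitochondrial genes, the 2 rRNAs, 11 mRNAs and 10 tRNAs. The 14 that were not tested were mt-Co3, mt-Nd4l and 12 tRNAs. None of the 23 passed, with the lowest adjusted p at 0.444 in edgeR, and none of the 16 that DESeq2 gave an adjusted p passed there, where 2.11% of all genes did. A single member, mt-Nd3, had an unadjusted p under 0.05, in edgeR and in DESeq2 alike. That count of 1 was 0 without Egr1-/- mouse 1, where 2366 of 18258 genes had such a p in either direction. It was also 0 without Egr1+/+ mouse 3 (1379 of 18192 genes), with upper-quartile scaling (1902 of 17667) and with total counts (1570 of 17667). It was 4 of 24 without Egr1+/+ mouse 1, beside 1587 of 18186 genes, and 4 of 25 without Egr1+/+ mouse 2, beside 2027 of 18368. With no filter it was 6 of 35, beside 2864 of 38261. In 0 of the 23 did every Egr1-/- mouse lie above every Egr1+/+ mouse, against 8.15% of all genes tested, and in 0 did every one lie below, against 8.1%.

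The direction was nevertheless mostly the same. Of the 23 genes 19 had a log2 fold change above 0, with a median of 0.38, beside a median of 0.00 over all genes tested. The 23 include 10 tRNAs, mt-Nd3, mt-Co2 and mt-Atp6, whose counts are not read here as RNA levels, and the rRNAs left after depletion. The genes share long precursors, so the 19 are not separate results. Of the 6 mRNAs with mostly unique windows (mt-Nd1, mt-Nd2, mt-Atp8, mt-Nd5, mt-Nd6 and mt-Cytb), 6 were above 0, with a median of 0.34. The rRNAs were at 0.38 (SE 0.30) for mt-Rnr1 and 0.31 (SE 0.31) for mt-Rnr2. Of the complex I mRNAs, mt-Nd4 was at 0.45 (SE 0.30), mt-Nd5 at 0.43 (SE 0.28), mt-Nd2 at 0.28 (SE 0.39), mt-Nd1 at 0.24 (SE 0.34) and mt-Nd6 at 0.22 (SE 0.31). mt-Cytb of complex III stood at 0.39 (SE 0.31). mt-Co1 of complex IV was at -0.03 (SE 0.25), the only mRNA tested with a value below 0. mt-Co2, from 6 to 97 counts, had 0.22 (SE 0.77). In complex V, mt-Atp8 was at 0.49 (SE 0.32) and mt-Atp6 at 0.45 (SE 0.38). The tRNAs tested ranged from -0.06 for mt-Tm to 0.81 for mt-Ti, the latter with 4 to 52 counts per mouse.

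mt-Nd3, a complex I subunit, has 98.0% of its windows in a nuclear transcript, so its values are not read here as RNA levels. Those of mt-Co2 and mt-Atp6 above are likewise not read as RNA levels. mt-Nd3 had 38.5, 48.1 and 29.8 CPM in Egr1+/+ mice, against 57.8, 59.98 and 42.5 in the Egr1-/- mice. Egr1-/- mouse 3 was below Egr1+/+ mouse 2, so the genotypes overlapped. The log2 fold change was 0.46 (SE 0.19, unadjusted p = 0.0405 in edgeR, adjusted p = 0.444), and it lay between 0.30 and 0.65 when each mouse was left out in turn.

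Most of this shift was lost without 1 mouse. Without Egr1-/- mouse 1 the median of the same 23 genes was 0.05, with 12 above 0 and 11 below. The median of the 6 mRNAs with mostly unique windows was then 0.07. Without Egr1+/+ mouse 3, which had the lowest share, the median of the 23 genes was 0.19. Leaving out any of the other 4 mice gave medians between 0.42 and 0.51. With the total count in place of TMM factors the median over all genes moved to -0.15 and that of the 23 to 0.22. Egr1-/- mouse 1 was also the library with the most counts, 42357981, and the lowest TMM factor, 0.787. The part of depth in its values was not tested. Among the 4 libraries whose names begin with the same number, which set this mouse against the 3 Egr1+/+ mice, the median was 0.85 with 23 of 23 above 0 and none called. Egr1-/- mice 2 and 3 have no Egr1+/+ library of their number.

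**Figure D3:**
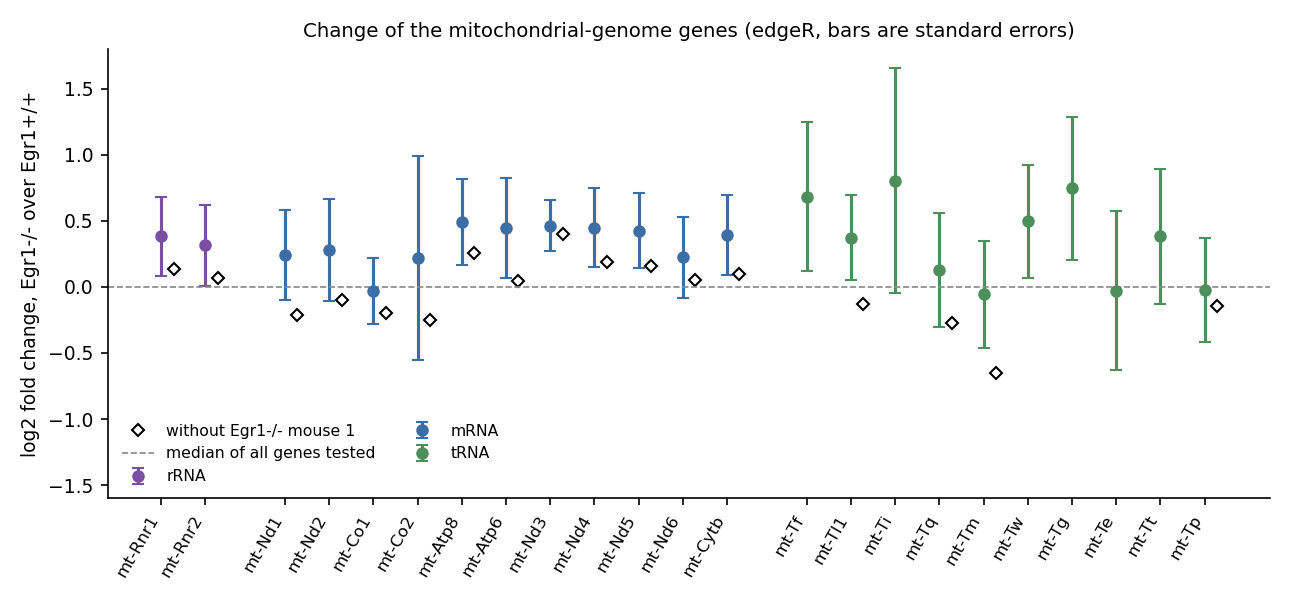
Log2 fold change (Egr1-/- over Egr1+/+) with standard error for the 23 mitochondrial genes tested, in genome order within rRNAs, mRNAs and tRNAs. Open diamonds give the value without Egr1-/- mouse 1 for the rRNAs, the mRNAs and the 4 tRNAs with most counts, and the dashed line is the median of all genes. Filled points lie mostly above the line, with a median of 0.38, and the diamonds around it.

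The make-up of the mRNA counts is a measure that leaves out how much of the library was mitochondrial. mt-Co1 held 51.8%, 65.4% and 60.6% of the counts of the 13 mRNAs in Egr1+/+ mice, against 48.6%, 55.9% and 53.6% in the Egr1-/- mice. The means were 59.3% ± 6.89 and 52.7% ± 3.698 (exact permutation p = 0.3), and Egr1+/+ mouse 1 lay inside the range of the Egr1-/- mice. mt-Nd5 held 8.34%, 5.90% and 7.38% in Egr1+/+ mice, against 9.03%, 8.40% and 8.86% in the Egr1-/- mice. mt-Nd4 held 4.49%, 3.43% and 3.43%, then 4.84%, 4.76% and 4.60%. For both complex I subunits every Egr1-/- mouse lay above every Egr1+/+ mouse, at the smallest p the design allows (exact permutation p = 0.1 each). Adjusted over the 13 mRNAs compared, both stood at 0.65 (adjusted exact permutation p). With no exact p below 0.1, this adjustment could not give a value under 0.05. mt-Cytb held 10.4% ± 1.31 and 12.3% ± 0.911 (exact permutation p = 0.2). The shares add to 100, so a lower share of mt-Co1 and higher shares of the others are not separate results.

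**Figure D4:**
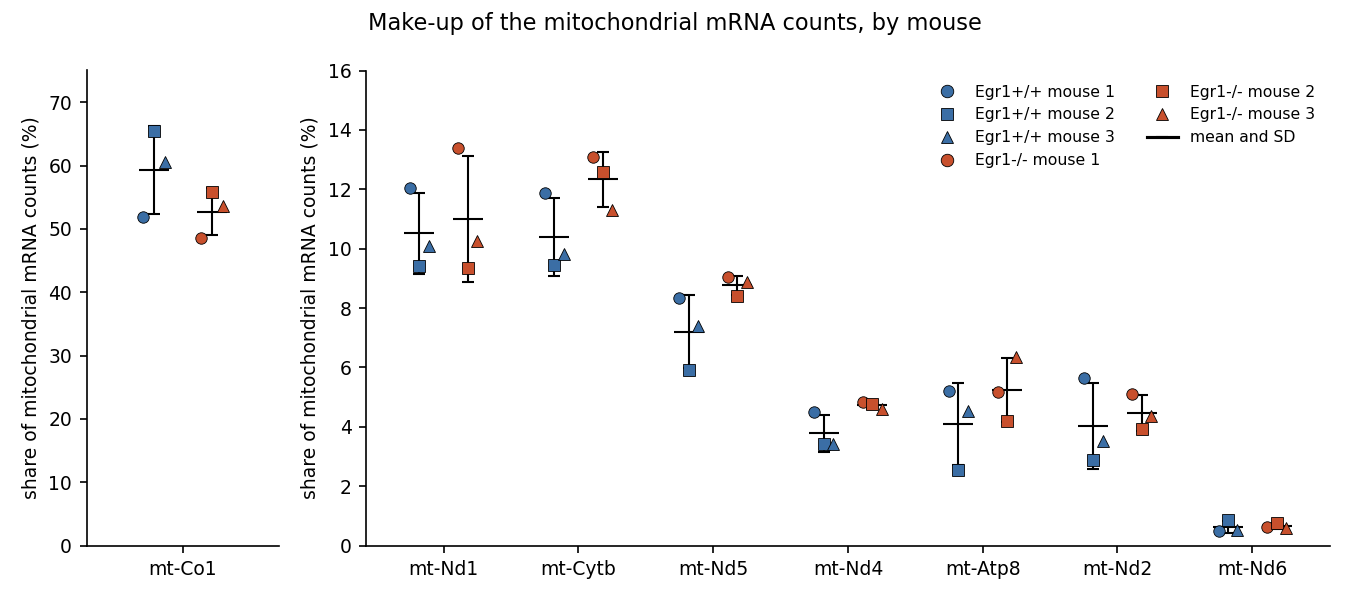
Share of each of the 8 well-counted mRNAs in the counts of all 13 mitochondrial mRNAs, by mouse, with mt-Co1 on its own axis. Bars are means and SD of 3 mice. For mt-Nd5 and mt-Nd4 the 3 Egr1-/- mice lie above the 3 Egr1+/+ mice, and for the others the genotypes overlap.

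Among the 6 mRNAs with fewer than 50% of their windows shared, the genotypes overlapped for each of the 6. mt-Nd1 held 28.7% ± 1.44 and 25.8% ± 2.71 (exact permutation p = 0.3), mt-Cytb 28.4% ± 1.82 and 29.1% ± 2.60 (p = 0.7, same test), and mt-Nd5 19.6% ± 0.850 and 20.7% ± 1.08 (exact permutation p = 0.2). For mt-Nd5 the separation seen over all 13 mRNAs was thus not present in this set. mt-Nd4, with 62.2% of its windows shared, is not in the set, so its separation was not examined there.

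Ratios between kinds of mitochondrial RNA overlapped between the genotypes. Those that hold an rRNA rest on what rRNA depletion left in each library. There were 7.88, 9.65 and 10.6 rRNA counts per mRNA count in Egr1+/+ mice, against 10.4, 9.73 and 10.99 in the Egr1-/- mice, a difference of 0.16 on the log2 scale (exact permutation p = 0.4). The ratio of mt-Rnr1 to mt-Rnr2 was 0.146 ± 0.0214 and 0.154 ± 0.0199 (exact permutation p = 0.6 on the log2 scale). mt-Nd6, from the light strand, had 0.00628 ± 0.00209 counts per count of heavy-strand mRNA in Egr1+/+ and 0.00669 ± 0.00102 in Egr1-/- mice (exact permutation p = 0.6 on the log2 scale).

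The mitochondrial genome is transcribed, processed and translated by proteins of nuclear genes. A list of 90 such genes, of which 89 were tested, was described beside the members. None passed an adjusted p of 0.05 in edgeR, and 2 of 89 did in DESeq2, beside 2.11% of all genes. At an unadjusted p under 0.05, 17 of 89 were higher in Egr1-/- mice, beside 5.06% of all genes, and 0 were lower, beside 5.6%. In 23 of 89 every Egr1-/- mouse lay above every Egr1+/+ mouse, beside 8.15%, and the median log2 fold change was 0.17. The 17 became 7 without Egr1-/- mouse 3, where 1190 of 18666 genes had such a p in either direction. They became 8 without Egr1+/+ mouse 3 (1379 of 18192 genes) and 2 with total counts in place of TMM factors (1570 of 17667).

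Polrmt, the RNA polymerase of mitochondria, had 6.29, 6.19 and 6.22 CPM in Egr1+/+ mice, against 9.16, 8.75 and 9.25 in the Egr1-/- mice. Every Egr1-/- mouse lay above every Egr1+/+ mouse by a margin larger than the spread within either genotype. Its log2 fold change was 0.54 (SE 0.13, unadjusted p = 0.00292 in edgeR), and it did not pass the adjustment (adjusted p = 0.227). The value lay between 0.52 and 0.57 when each mouse was left out. Tfam, which packs mitochondrial DNA and starts its transcription with the polymerase, had 27.7, 25.74 and 25.24 CPM and then 25.51, 23.8 and 27.4, a log2 fold change of -0.04 (SE 0.11). Tfb2m, which opens the promoter, was at 0.24 (SE 0.18), Tefm, the elongation factor, at 0.11 (SE 0.18) and Tfb1m, which methylates mt-Rnr1, at 0.13 (SE 0.22). The mice of both genotypes overlapped for these 4 genes.

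Of 14 genes of RNA processing and polyadenylation, 13 had a value above 0, with a median of 0.31, and 6 were higher with an unadjusted p under 0.05, beside 5.06% of all genes. In 7 every Egr1-/- mouse lay above every Egr1+/+ mouse, beside 8.15%, and these 7 included the 6. Fastkd5, needed to process precursors that lack a tRNA between mRNAs, had 1.63, 1.63 and 1.53 CPM against 2.64, 2.32 and 3.14, a log2 fold change of 0.76 (SE 0.23). Tbrg4, Fastkd1 and Fastk, of the same protein family, were at 0.60 (SE 0.19), 0.44 (SE 0.15) and 0.44 (SE 0.13). Hsd17b10, a subunit of the RNase P that cuts the 5′ ends of tRNAs, was at 0.31 (SE 0.12). Pde12, which shortens poly(A) tails in mitochondria, was at 0.34 (SE 0.12). The adjusted p of these 6 lay between 0.262 for Fastk and 0.411 for Hsd17b10 in edgeR. The 6 became 3 without Egr1+/+ mouse 3, where 1379 of 18192 genes had such a p in either direction. They became 3 without Egr1-/- mouse 3 (1190 of 18666 genes), 9 without Egr1-/- mouse 2 (1663 of 18461) and 0 with total counts (1570 of 17667). Lrpprc, which holds mitochondrial mRNAs stable, was higher in every Egr1-/- mouse at 0.32 (SE 0.15), and its partner Slirp was at 0.06 (SE 0.21) with overlap.

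Among the nuclear regulators, Ppargc1a, a coactivator of mitochondrial biogenesis and thermogenesis, had 32.1, 19.9 and 36.4 CPM in Egr1+/+ mice, against 58.7, 48.4 and 79.7 in the Egr1-/- mice. Its relative Ppargc1b had 14.3, 10.6 and 11.7 against 21.9, 20.1 and 27.2. The log2 fold changes were 1.08 (SE 0.24) and 0.92 (SE 0.16), and these are the 2 genes of the list that DESeq2 called, with adjusted p of 0.000924 and 0.000292. In edgeR the adjusted p were 0.193 and 0.155. Esrra, a nuclear receptor they bind, was at 0.36 (SE 0.14) with no overlap. Of the translation factors, Tufm and Gfm2 were at 0.36 (SE 0.13) and 0.38 (SE 0.10). Aars2, Nars2 and Tars2, 3 of 20 genes for charging tRNAs, were at 0.43, 0.36 and 0.25. All 20 of these had values above 0, with a median of 0.17. Polg, the polymerase that copies mitochondrial DNA, was at 0.26 (SE 0.11). The median was 0.14 for transcription, 0.18 for the regulators and 0.22 for translation factors, and between 0.05 and 0.10 for rRNA modification, tRNA modification, RNA stability and DNA maintenance.

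Nuclear genes for respiratory subunits, those of complex II included, had a lower median than the mitochondrial genes with all 6 mice. The order was the other way without Egr1-/- mouse 1 or without Egr1+/+ mouse 3. Of 75 tested, 72 had a log2 fold change above 0, with a median of 0.29. The median was 0.38 for the mitochondrial genes of all kinds and 0.39 for the mRNAs among them. At an unadjusted p under 0.05, 26 of 75 were higher, beside 5.06% of all genes, and 0 lower, and in 19 of 75 every Egr1-/- mouse lay above every Egr1+/+ mouse, beside 8.15%. None passed the adjustment in edgeR and 1 did in DESeq2, Cox5a of complex IV, named here after its value was seen. It had 18.1, 27.9 and 19.0 CPM in Egr1+/+ and 36.9, 34.9 and 40.9 in Egr1-/- mice, and the log2 fold change was 0.80 (SE 0.17, adjusted p = 0.1799 in edgeR). Without Egr1-/- mouse 1 the median of the 75 was again 0.29, where that of the mitochondrial genes was 0.05. Without Egr1+/+ mouse 3 these medians were 0.27 and 0.19. Without Egr1-/- mouse 3 the median of the 75 was 0.20, with 6 at an unadjusted p under 0.05, beside 1190 of 18666 genes in either direction. There were 7 such subunits without Egr1+/+ mouse 3 (beside 1379 of 18192 genes) and 47 without Egr1-/- mouse 2 (beside 1663 of 18461). With total counts in place of TMM factors 2 of 75 had such a p, 63 lay above 0 and the median was 0.15. Complex II, which has no mitochondrial subunit, had the highest median of the complexes at 0.43 over 4 genes, and complex I the lowest at 0.25 over 36.

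**Figure D5:**
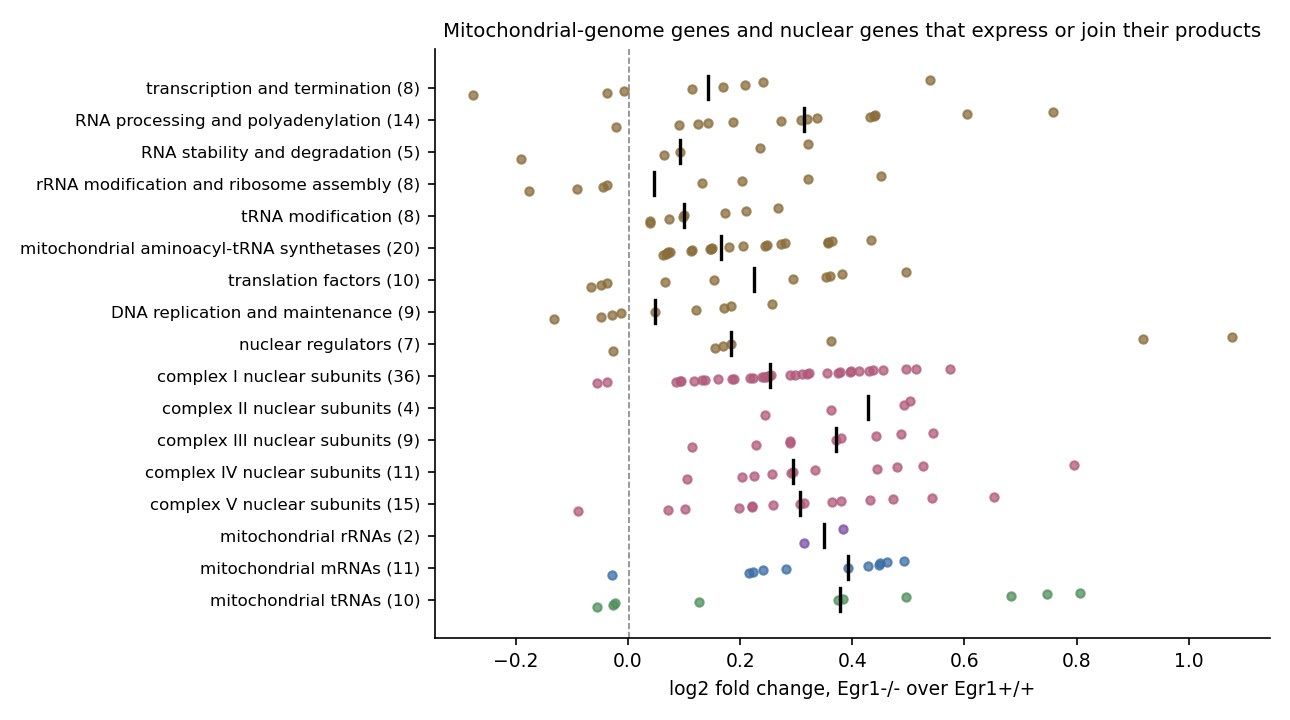
Log2 fold change (Egr1-/- over Egr1+/+) of each tested gene in lists of nuclear genes for mitochondrial gene expression and respiratory subunits, and of the mitochondrial rRNAs, mRNAs and tRNAs. Each point is 1 gene, the black bar is the list's median, the number of genes is in brackets, and the dashed line is the median of all genes. Points lie mostly right of the line, and the medians run from 0.05 to 0.43.

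The ratio of mitochondrial to nuclear mRNA within a complex did not separate the genotypes. For complex I the summed mitochondrial over summed nuclear CPM was 2.92, 2.47 and 2.04 on the log2 scale in Egr1+/+ mice, against 3.11, 2.58 and 1.90 in the Egr1-/- mice (exact permutation p = 0.9). For complex III it was 2.79, 2.55 and 2.01 against 3.04, 2.69 and 1.81 (exact permutation p = 0.9). For complex IV, where mt-Co1 is nearly all of the mitochondrial sum, it was 4.58, 4.95 and 4.17 against 4.57, 4.56 and 3.74 (exact permutation p = 0.5). For complex V it was 0.49, -0.62 and -0.35 against 0.49, -0.10 and -0.25 (exact permutation p = 0.5). The ratios of complexes I and III ranged more widely among the mice of a genotype than between the genotype means. The nuclear sum of complex V was higher in every Egr1-/- mouse, at 2182 ± 77.0 CPM in Egr1+/+ and 2793 ± 517 in Egr1-/- mice (exact permutation p = 0.1). In complexes IV and V 3 of the mitochondrial mRNAs were almost uncounted. The complex I sum holds mt-Nd3 and mt-Nd4l, not read here as RNA levels, and mt-Nd4, with 62.2% of its windows shared. These ratios are therefore of the counts, not of the subunits.

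Markers of the cell types of the depot differed in level between genotypes or between mice. The summed level of 6 brown or beige adipocyte markers was 485 to 636 CPM in Egr1+/+ and 871 to 1459 in Egr1-/- mice, and 5 of 5 tested had a value above 0. No marker of any list was at 0 in all 6 mice. The 10 skeletal muscle markers summed to 1140, 3529 and 220.0 CPM in Egr1+/+ mice, against 107, 377 and 2850 in Egr1-/- mice. In the same order of mice, the mitochondrial share of all counts was 55.4%, 57.4% and 50.0% in Egr1+/+ and 66.3%, 57.6% and 54.9% in Egr1-/- mice. Most of that share was rRNA left after depletion. White adipocyte markers summed to 7575 to 8214 and 6270 to 7324 CPM, macrophage markers to 325 to 448 and 251 to 302, and stromal progenitor markers to 610.0 to 654 and 337 to 502. These 3 sums were lower in every Egr1-/- mouse, with 1 of 6, 0 of 6 and 0 of 5 markers at a log2 fold change above 0. Lymphocyte markers (82.4 to 97.2 and 68.6 to 185 CPM), endothelial markers (317 to 414 and 305 to 456) and epithelial markers (0.815 to 9.99 and 5.27 to 8.28) overlapped, with 6 of 6, 4 of 5 and 4 of 5 above 0, as did the muscle markers with 2 of 10. The part of the cell make-up in the mitochondrial counts was not tested, and in whole tissue more cells of a type and more RNA per cell cannot be told apart.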

How the data were processed

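RNA-seq was done on inguinal SC-WAT of 6 mice, 1 library each, after depletion of rRNA with Ribo-Zero and with a strand-specific kit. The authors mapped the reads to GRCm38/mm10 with TopHat2 and Bowtie2, guided by GENCODE M8, and deposited raw featureCounts read counts per gene. The settings for strand and for reads with several places are not given in the sources used here. Genes were named through GENCODE M21, which matched 46574 of 47069 identifiers, and coordinates and sequences come from that release (GRCm38). Tests used edgeR 4.0.16 under R 4.3.3 (TMM, filterByExpr, quasi-likelihood test, Benjamini-Hochberg adjustment over all genes, threshold 0.05). Depth was 29661984 to 42357981 counts per mouse, and count floors used 3 counts. DESeq2 1.42.0 and limma-voom 3.58.1, other normalizations and filters, and leaving out each mouse were alternatives. Shares and ratios were compared by exact two-sided permutation tests, unadjusted except where an adjusted value is named for the shares of the 13 mRNAs. Windows of 50 bases were searched in nuclear transcripts, and copies were taken at 95% identity over 50% of a transcript with blastn 2.17.0. The standard error was taken as the absolute fold change on the log2 scale divided by the root of the F statistic. All 37 genes are accounted for, and the rRNAs, mRNAs and 4 most counted tRNAs are named, with Polrmt, Tfam, Tfb1m, Tfb2m, Tefm, Lrpprc, Slirp and any listed nuclear gene of mitochondrial gene expression with an unadjusted p under 0.05 and no overlap. The members and lists were chosen with earlier results of these data known.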

Additional observations from a re-analysis of the deposited data

How the results depend on the processing

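No mitochondrial gene was called under any of the 19 other fits, and 3 mice a group limits all tests. The edgeR legacy quasi-likelihood fit among them gave the same values as the main fit and is no separate check. Over all genes edgeR called 3, and the count was 0 with upper-quartile scaling, 0 among the 4 libraries of the same name number, 79 with total counts, 552 with no filter on low counts, 372 with DESeq2 and 1 with limma-voom. Leaving out each mouse gave 0 to 59, the 59 being without Egr1-/- mouse 1. Of the 89 nuclear genes for mitochondrial gene expression 2 were called with no filter and 2 with DESeq2, and of the 75 respiratory subunits 6 and 1. Over all genes these fits called 552 of 38261 and 372 of 17667. The causes were not tested. edgeR's newer quasi-likelihood method, added after the data were seen, called 3.

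Replicate numbers did not pair the mice, with correlations of -0.0888, 0.106 and -0.126 and 2 of 6 mice most correlated with their own number. With the replicate block 0 genes were called and mt-Tp was at 0.13 on the log2 scale. In that fit 5 of 23 mitochondrial genes had an unadjusted p under 0.05, beside 1909 of 17667 genes.

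Among the 4 libraries of the same name number the log2 medians were 0.75 for the rRNAs and 0.79 for the tRNAs, mt-Co1 was at 0.27, mt-Tm at 0.69 and mt-Tp at 0.20. mt-Tp was at 0.00163 with no filter and 0.18 with limma-voom, and mt-Tq at -0.063 with total counts. The mRNA share differed by 1.30 percentage points over protein-coding counts and by 1.23 without the rRNAs. Among the mRNAs with mostly unique windows the log2 differences were -0.058 for rRNA to mRNA and -0.087 for mt-Nd6 to heavy-strand mRNAs, and without mt-Co1 they were -0.069 and -0.10. In that set the shares of mt-Nd1, mt-Nd2 and mt-Nd6 differed by -2.92, -0.21 and -0.20 points.

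Leaving out each mouse in turn gave log2 fold changes of -0.20 to 0.59 for the tRNA median, -0.21 to 0.51 for mt-Nd1, -0.10 to 0.82 for mt-Nd2, -0.20 to 0.12 for mt-Co1, -0.27 to 1.39 for mt-Co2, -0.03 to 0.61 for mt-Nd6, -0.13 to 0.63 for mt-Tl1, -0.65 to 0.32 for mt-Tm, -0.30 to 0.62 for mt-Tp and -0.27 to 0.59 for mt-Tq. The lowest value came without Egr1-/- mouse 1 for the tRNA median, mt-Nd1, mt-Nd2, mt-Tl1, mt-Tm and mt-Tq. The difference in share ran from -0.563 to 0.396 points for the mRNAs and from -0.000596 to 0.000459 for the tRNAs. The log2 difference ran from -0.033 to 0.18 for mt-Rnr1 to mt-Rnr2, -0.19 to 0.18 for tRNA to mRNA, -0.038 to 0.39 for mt-Nd6 to heavy-strand mRNAs and -0.51 to 0.44 for light- to heavy-strand tRNAs. Shares of the mRNA counts ran from -0.708 to 1.31 points for mt-Nd1, -0.131 to 1.26 for mt-Nd2, -0.00086 to 0.00126 for mt-Co2, -0.0317 to 0.159 for mt-Nd6 and -1.58e-05 to 2.09e-05 for mt-Nd4l. The ratio to nuclear subunits ran from -0.24 to 0.37 for complex I, -0.20 to 0.41 for complex III and -0.023 to 0.53 for complex V.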
